A study of Mus musculus with 22 samples.

Results

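The effect of amyloid transgenes on the splicing deficiency of mouse cortex was examined on a background that already carries a spliceosome transgene. All 3 dTg libraries were compared with all 3 N40K libraries of the same age, which makes 6 of the 22 libraries of the series, over all 15705 genes of the 6-month table. The dTg mice carry the N40K transgene together with the 5xFAD transgenes, and the N40K mice carry the N40K transgene without them. Both groups were 6-month-old littermates from matings of N40K-Tg +/- with FAD +/- mice, so the N40K transgene is shared and the 5xFAD transgenes are what differs by genotype. The 5xFAD mice (3 libraries) and WT mice (3 libraries) of the same matings served as the same contrast without N40K. The tissue was cortex, and poly(A) RNA was sequenced as stranded libraries. The labels number the libraries as replicates of each genotype and do not give the animals' sex or strain.

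The U1 small nuclear ribonucleoprotein (U1 snRNP) binds the 5′ end of introns and starts the assembly of the spliceosome, and its U1-70K subunit is encoded by Snrnp70. The N40K transgene encodes an N-terminal fragment of U1-70K. The 5xFAD mouse is a widely used amyloid model in which mutant human transgenes that raise amyloid production are driven in neurons by the Thy1 promoter, so its plaques come from overproduction and not from the mouse's own App gene. Plaques in this model are surrounded by microglia, the resident macrophages of the brain, which turn on lysosomal, lipid-handling and interferon-induced genes.

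The deposited value is the Sd score, a ratio per gene and library, which was read as unspliced relative to spliced signal, so that a higher score means more retained intron. As a ratio it cannot tell less unspliced RNA from more spliced RNA, and in pieces of cortex a smaller number of cells of a type cannot be told apart from less RNA per cell. It also gives no expression levels, so neither the tissue nor the transgenes could be checked against marker levels, and the number of reads behind a score is unknown.

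The score distributions of both groups lay close together. The library medians were 0.030, 0.035 and 0.033 in dTg replicates 1 to 3, against 0.036, 0.031 and 0.032 in N40K replicates 1 to 3. The groups overlapped, and the highest library of each, dTg replicate 2 and N40K replicate 1, lay above all other libraries. The medians averaged 0.0327 ± 0.0025 in dTg and 0.033 ± 0.0026 in N40K libraries (SD, n = 3 each), a log2 difference of -0.01 (two-sided exact permutation test, p = 0.9, where 0.1 is the smallest p that 3 against 3 allows). The lower quartiles averaged 0.011 in both groups and the upper quartiles 0.098 in both. The 6 libraries correlated with each other at r between 0.985 and 0.99 over genes on the log2 scale. Scores are deposited to 3 decimals, and 38.6% of the genes had a mean score under 0.02 over the 12 libraries, where 1 step of the last decimal is a large part of the value.

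**Figure D1:**
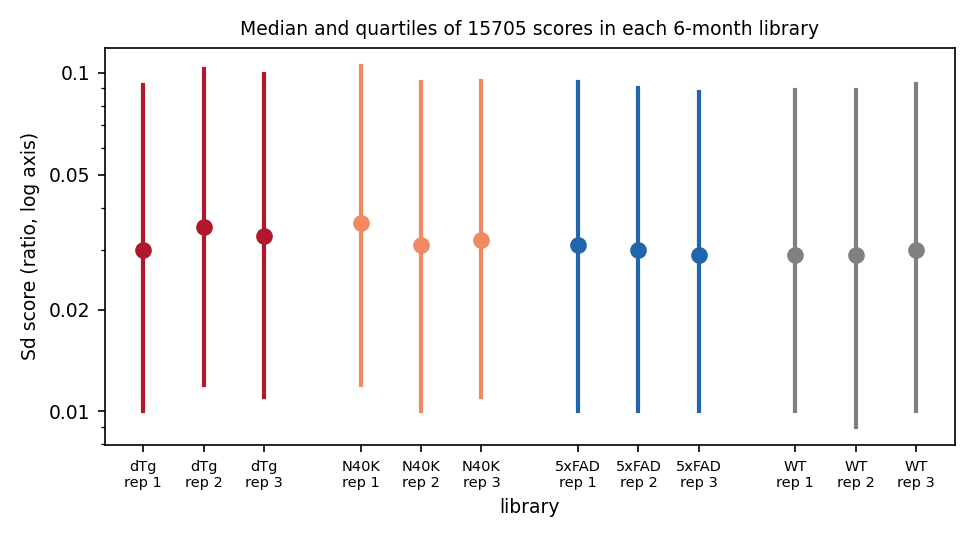
Median (point) and quartiles (line) of the 15705 Sd scores in each 6-month library, on a log axis. The dTg medians (0.030 to 0.035) and N40K medians (0.031 to 0.036) cover nearly the same range, and 1 library of each group stands above the rest.

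Very few genes passed the test across all genes, and those that did were at the resolution of the scores. With limma on log2(score + 0.002), 3 of the 15705 genes (0.0191%) passed a Benjamini-Hochberg adjusted p of 0.05, 2 of them higher (0.0127%) and 1 lower (0.00637%) in dTg. Synpr, which encodes the synaptic vesicle protein synaptoporin, was listed at 0.001 in every dTg library, against 0 in every N40K library (adjusted p = 8.08e-05), and at 0 in all 5xFAD and WT libraries. Prex1, an activator of the small GTPase Rac, was at 0.003 in every dTg library, against 0.002 in every N40K library (log2 change 0.32 ± 0.028 (SE), adjusted p = 0.00538).

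Cst3, which encodes the secreted protease inhibitor cystatin C, was at 0.002 in every dTg library, against 0.003 in every N40K library (log2 change -0.32 ± 0.028 (SE), adjusted p = 0.00538). It had the same values without N40K, 0.002 in every 5xFAD library, against 0.003 in every WT library, and passed there too. Each of the 3 genes differed between the groups by 1 step of the last decimal, with no spread within either group. In these 6 libraries 473 genes had no spread within either group, counting those with the same value in both. The number of genes that passed depended on single libraries: it was 22 without N40K replicate 1 (21 of them higher), 10 without 5xFAD replicate 2, 8 without dTg replicate 2, 7 without N40K replicate 2, 6 without dTg replicate 3, 5 without dTg replicate 1, and 3 or 4 without any of the others. Without both libraries of highest median, N40K replicate 1 and dTg replicate 2, 34 genes passed, of which 33 had a mean score under 0.02.

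With each library centred on its median, 0 genes (0%) passed in limma and the lowest adjusted p was 0.141. Without centring, 807 genes (5.14%) had an unadjusted p under 0.05, of which 451 (2.87%) were higher and 356 (2.27%) lower in dTg. With centring it was 927 genes (5.9%), of which 543 (3.46%) were higher and 384 (2.45%) lower. Of the 9640 genes with a mean score of at least 0.02 over the 12 libraries, all 3 dTg libraries lay above all 3 N40K libraries for 335 (3.48%) and below them for 337 (3.5%). The genes described from here on did not pass over all genes unless it is said that they did, and their values are given as measured.

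The genes that came closest in the lower direction included known genes of microglia, of lysosomes and of the interferon response. Among genes without overlap between the groups and with a mean score of at least 0.02 over the 6 dTg and N40K libraries, the 10 lower ones of smallest p were Cd68, Usp18, Rnf213, Cd180, Lpxn, Ifi30, Lgals3bp, Plcb2, Cxcl16 and Nmb. Lgals3bp and Lpxn reach that mean through their N40K libraries, as their dTg means were 0.013 and 0.0173. Lgals3bp is also under 0.02 over all 12. Their log2 changes ran from -1.29 to -0.41, their adjusted p-values from 0.203 to 0.334 without centring and from 0.141 to 0.376 with it. The side of the threshold turned on single libraries of the other background for 3 of them. Cd68 passed without 5xFAD replicate 2 (adjusted p = 0.0357, 0.0357 to 0.629 over all alternatives), Usp18 without WT replicate 2 (0.039, 0.039 to 0.562), and Cd180 without 5xFAD replicate 1 (0.0372) or 5xFAD replicate 2 (0.0459, 0.0372 to 0.645).

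Cd68 encodes a lysosomal glycoprotein of macrophages and microglia. Its score was 0.179, 0.176 and 0.172 in dTg, against 0.259, 0.277 and 0.259 in N40K cortex, a log2 change of -0.59 ± 0.084 (SE, adjusted p = 0.203). The 3 dTg libraries sat close together and well under the N40K ones. On the other background it was 0.212, 0.174 and 0.203 in 5xFAD, against 0.261, 0.293 and 0.245 in WT cortex, again without overlap (log2 change -0.44, unadjusted p = 5.07e-04).

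Cd180, a Toll-like receptor relative on myeloid and B cells, scored 0.212, 0.238 and 0.202 in dTg, against 0.504, 0.459 and 0.551 in N40K cortex. Every dTg library was under every N40K library by a wide margin (log2 change -1.21 ± 0.21 (SE), adjusted p = 0.334). In 5xFAD cortex it scored 0.351, 0.174 and 0.236, against 0.476, 0.542 and 0.475 in WT cortex, where the groups were also apart (log2 change -1.02). Cxcl16, a membrane-bound chemokine, scored 0.104, 0.130 and 0.077 in dTg, against 0.235, 0.287 and 0.233 in N40K cortex (log2 change -1.29 ± 0.24 (SE), adjusted p = 0.334). The change of Cxcl16 in 5xFAD minus WT was -0.83.

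Usp18 encodes a protease that removes the interferon-induced modifier ISG15 from proteins. It scored 0.024, 0.023 and 0.023 in dTg, against 0.049, 0.051 and 0.045 in N40K cortex (log2 change -0.99 ± 0.15 (SE), adjusted p = 0.268). In 5xFAD cortex it scored 0.029, 0.021 and 0.023, against 0.056, 0.037 and 0.053 in WT cortex (log2 change -0.93). The pattern is one of dTg and 5xFAD libraries together at the low end and N40K and WT libraries together at the high end.

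Rnf213, a large interferon-inducible ubiquitin ligase, scored 0.043, 0.059 and 0.044 in dTg, against 0.088, 0.088 and 0.086 in N40K cortex (log2 change -0.83 ± 0.14 (SE), adjusted p = 0.31). Lgals3bp, a secreted glycoprotein that binds galectin-3, scored 0.012, 0.015 and 0.012 in dTg, against 0.028, 0.026 and 0.035 in N40K cortex (log2 change -1.07 ± 0.19 (SE), adjusted p = 0.334). Neither gene's groups overlapped on the other background either, where the log2 changes of 5xFAD minus WT were -0.51 for Rnf213 and -1.0 for Lgals3bp.

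Ifi30, a lysosomal thiol reductase used in antigen processing, scored 0.125, 0.134 and 0.139 in dTg, against 0.186, 0.166 and 0.180 in N40K cortex (log2 change -0.41 ± 0.074 (SE)). Plcb2, a phospholipase C of blood and immune cells, scored 0.057, 0.065 and 0.060 in dTg, against 0.101, 0.124 and 0.094 in N40K cortex (log2 change -0.78 ± 0.14 (SE)). These were the only 2 of the 10 whose 5xFAD and WT libraries overlapped, with log2 changes of -0.19 for Ifi30 and -0.23 for Plcb2 in 5xFAD minus WT. For Plcb2 the difference between the 2 changes was -0.55 (interaction, unadjusted p = 0.0241), and it did not pass over all genes. The remaining genes were Lpxn, an adaptor of cell adhesion sites, with a log2 change of -0.57, and Nmb, the precursor of the neuropeptide neuromedin B, with -0.56.

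**Figure D2:**
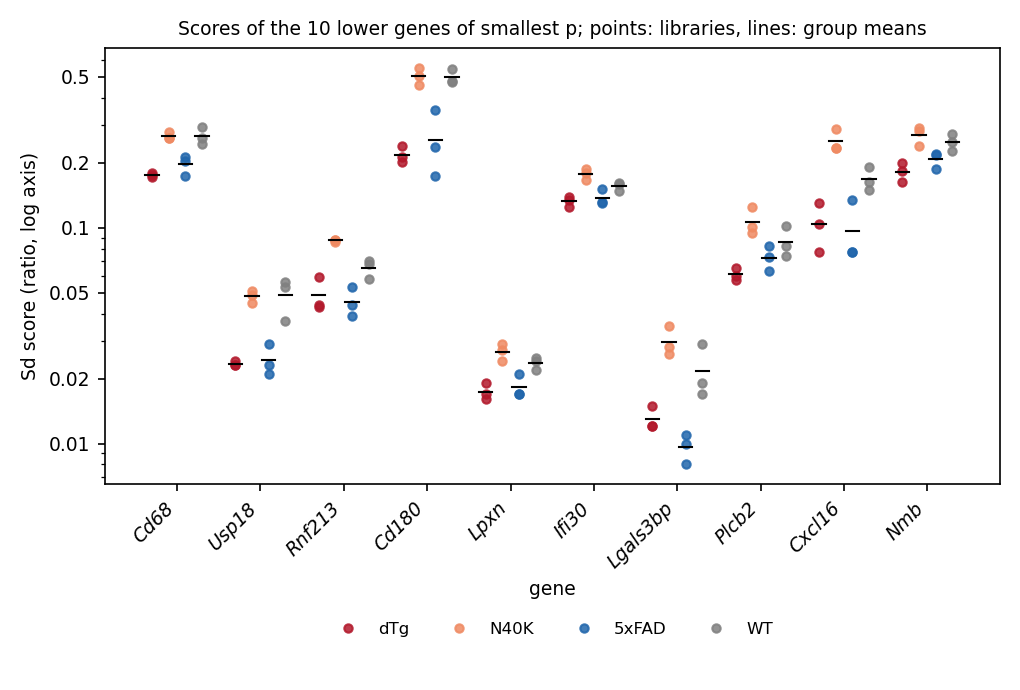
Sd score of each library (points, log axis) and group mean (line) for 10 lower genes in dTg against N40K. They were taken by smallest p among genes without overlap and with a mean score of at least 0.02 over the 6 libraries. For each gene the dTg points lie under all N40K points, as for Cd180 with 0.202 to 0.238 against 0.459 to 0.551, and 5xFAD lies under WT by group mean.

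Taken under the same conditions, the 10 higher genes of smallest p had varied known roles, and 8 of the 10 overlapped on the other background. They were Cdk8, Suv39h2, Csf3r, Trmt112, Nudt16, Brwd1, Gas2l1, Sspn, Gpr133 and Kntc1, with log2 changes from 0.19 to 1.05 and adjusted p-values from 0.334 to 0.441. Brwd1 reaches the mean score of 0.02 through its dTg libraries (mean 0.0223, against 0.0193 in N40K).

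Cdk8, the kinase of the Mediator complex, scored 0.105, 0.094 and 0.079 in dTg, against 0.052, 0.067 and 0.057 in N40K cortex (log2 change 0.64 ± 0.12 (SE), adjusted p = 0.334). The dTg libraries were the highest of the 12, since the score was 0.048, 0.047 and 0.048 in 5xFAD and 0.041, 0.050 and 0.048 in WT cortex. The difference between the 2 changes was 0.60 (interaction, unadjusted p = 0.00644, adjusted p = 1). Suv39h2, a histone H3 lysine 9 methyltransferase, scored 0.277, 0.281 and 0.260 in dTg, against 0.208, 0.192 and 0.186 in N40K cortex (log2 change 0.48 ± 0.09 (SE), adjusted p = 0.334). Its 5xFAD libraries (0.242, 0.304 and 0.249) and WT libraries (0.254, 0.270 and 0.238) overlapped each other and the dTg libraries, and the N40K libraries lay below all of them.

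Trmt112, the activating subunit of several methyltransferases, scored 0.052, 0.038 and 0.049 in dTg, against 0.025, 0.019 and 0.020 in N40K cortex (log2 change 1.05 ± 0.21 (SE), adjusted p = 0.416). Its 5xFAD and WT libraries overlapped at 0.021 to 0.038 and 0.025 to 0.036 (log2 change -0.05), and the interaction of 1.10 had an unadjusted p of 0.00528. Sspn, a membrane protein of the dystrophin complex, scored 0.070, 0.065 and 0.049 in dTg, against 0.026, 0.041 and 0.032 in N40K cortex (log2 change 0.86 ± 0.18 (SE)). The dTg libraries of Sspn were apart from all the others, as 5xFAD libraries had 0.029 to 0.031 and WT libraries 0.025 to 0.035.

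Gpr133, an adhesion G protein-coupled receptor, and Kntc1, a kinetochore protein, were higher on both backgrounds without overlap. Gpr133 scored 0.565, 0.483 and 0.563 in dTg, against 0.400, 0.416 and 0.330 in N40K cortex, with log2 changes of 0.49 in dTg minus N40K and 0.39 in 5xFAD minus WT. Kntc1 scored 0.036, 0.049 and 0.039 in dTg, against 0.022, 0.018 and 0.020 in N40K cortex, with log2 changes of 0.97 and 0.58 in the same order. The others of the 10 were Csf3r (the granulocyte colony-stimulating factor receptor), the nucleotide hydrolase Nudt16, the bromodomain protein Brwd1 and the cytoskeletal linker Gas2l1, with log2 changes of 0.25, 0.49, 0.19 and 0.31 in that order and no more than 0.08 in 5xFAD minus WT. Centring brought in 2 further genes among the first 5 in the higher direction, the matrix link protein Hapln3 (log2 change 0.54 without centring) and the WD-repeat protein Gnb1l (0.52).

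**Figure D3:**
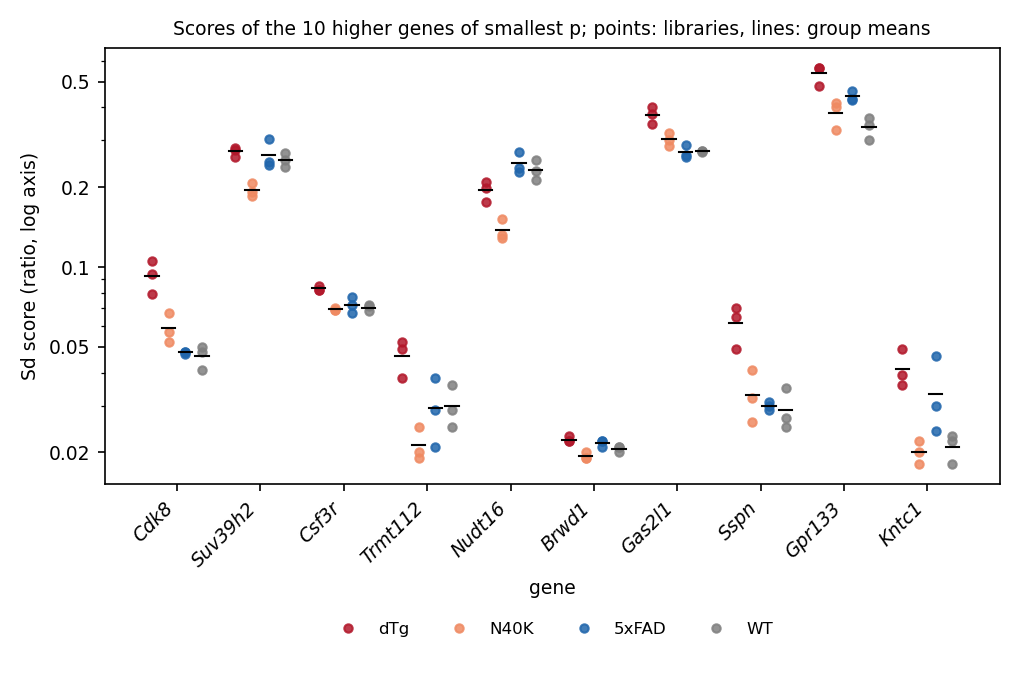
Sd score of each library (points, log axis) and group mean (line) for 10 higher genes in dTg against N40K. They were taken by smallest p among genes without overlap and with a mean score of at least 0.02 over the 6 libraries. The dTg points of Cdk8 (0.079 to 0.105) and Sspn (0.049 to 0.070) lie above the points of all other groups, while for Suv39h2 it is N40K that lies below the other 3 groups.

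By gene list, the 3 lowest medians were those of the immune lists. The lists were written with earlier results of these data known, so their shares beside all genes are descriptive. Of 33 listed genes of amyloid-associated microglia and lysosomes, 25 were in the table. None passed over all genes, 21 had a change below 0 (84%, against 43.9% of all genes), and 9 were lower at an unadjusted p under 0.05 (36%, against 2.27%), with none higher. With centring, 19 had a change below 0 and 6 were lower at that p, where 2.45% of all genes were. For 10 of the 25 (40%, against 2.6% of all genes) every dTg library lay under every N40K library. The median log2 change was -0.24 (-0.22 centred), against 0.0015 for all genes (0.015 centred).

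Lysosomal enzymes and transport proteins made up most of those members. Grn, the precursor of progranulin, a regulator of lysosomes, scored 0.113, 0.112 and 0.117 in dTg, against 0.127, 0.137 and 0.129 in N40K cortex (log2 change -0.20 ± 0.045 (SE), adjusted p = 0.455). The dTg values lay close together and under all N40K values, and the change in 5xFAD minus WT was -0.19. In limma the unadjusted p of Grn was 0.00159, and 0.0651 with centring. The cathepsin Ctsz scored 0.007, 0.009 and 0.008 in dTg, against 0.013, 0.012 and 0.012 in N40K cortex (log2 change -0.52). The groups were apart, by few steps of the last decimal.

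Npc2, which carries cholesterol out of lysosomes, the lysosomal glycosidase subunit Hexa, and the lysosomal carboxypeptidase Ctsa had log2 changes of -0.62, -0.46 and -0.15 in that order, all without overlap. The secreted phosphoprotein Spp1 had -0.33 and the lipoprotein lipase gene Lpl -0.39, with overlapping groups. Itgax, the integrin subunit CD11c of activated microglia, scored 0.040, 0.034 and 0.035 in dTg, against 0.090, 0.073 and 0.088 in N40K cortex. The groups were far apart, but a single WT library at 0.015, against 0.080 and 0.095 in the other WT libraries, widened the shared spread (log2 change -1.16 ± 0.54 (SE), unadjusted p = 0.0617). Trem2, the receptor through which microglia sense lipids, had a log2 change of -0.24 and overlapping groups, and Apoe, the main apolipoprotein of the brain, had -0.03. Ctss and Cd9 were at 0.001 in all 12 libraries, and 2 members had a change above 0, Ctsb and Axl, with 0.09 and 0.11.

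Of 32 listed genes of homeostatic microglia and immune signalling, 18 were in the table, and 13 of them had a change below 0 (72.2%, against 43.9% of all genes), with a median of -0.16 (-0.15 centred, -0.08 without N40K replicate 3). At an unadjusted p under 0.05, 3 were lower (16.7%, against 2.27% of all genes), namely Cd180, P2ry12 and Cd84, and 1 was higher (5.56%, against 2.87%). The purinergic receptor gene P2ry12, a marker of resting microglia, scored 0.009, 0.011 and 0.009 in dTg, against 0.016, 0.011 and 0.014 in N40K cortex, and the groups touched. The higher one was Mertk, a receptor for the uptake of dying cells, which scored 0.019, 0.020 and 0.020 in dTg, against 0.017, 0.014 and 0.016 in N40K cortex (log2 change 0.30 ± 0.066 (SE), adjusted p = 0.441). Mertk was also apart without N40K, at 0.019, 0.020 and 0.021 in 5xFAD, against 0.016, 0.015 and 0.016 in WT cortex (log2 change 0.32). The microglial genes Csf1r, Itgam, Ptprc and Aif1 overlapped between dTg and N40K, with log2 changes of -0.07, -0.04, 0.06 and -0.17 in that order.

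Of 27 listed interferon-response genes, 18 were in the table, and 17 of them had a change below 0 (94.4%, against 43.9% of all genes). Without N40K replicate 3, 13 had a change below 0. None passed over all genes, and 5 (27.8%, against 2.27% of all genes) were lower at an unadjusted p under 0.05. These 5 also had no overlap between the groups (27.8%, against 2.6% of all genes). The median log2 change was -0.19 (-0.17 centred), and ran from -0.28 without N40K replicate 2 to -0.15 without N40K replicate 3. At that p, 3 were lower without N40K replicate 1, dTg replicate 1 or dTg replicate 3. The 5 were Usp18, Trim30a, Ddx58, Irf7 and Parp14. Ddx58, which encodes the viral RNA sensor RIG-I, scored 0.020, 0.030 and 0.021 in dTg, against 0.038, 0.032 and 0.034 in N40K cortex (log2 change -0.53 ± 0.2 (SE), adjusted p = 0.897). Irf7, a transcription factor of the interferon response, scored 0.517, 0.431 and 0.508 in dTg, against 0.585, 0.685 and 0.616 in N40K cortex (log2 change -0.37), and its 5xFAD and WT libraries overlapped (0.01). Trim30a had a log2 change of -0.84, but belongs to a cluster of near-identical Trim30 genes that can share reads, so its score is uncertain, as are those of Gbp2, Gbp3, Oas1a, Ifit2, H2-D1 and H2-K1.

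The ubiquitin-like modifier gene Isg15 had overlapping groups at 0.067, 0.084 and 0.094 in dTg, against 0.084, 0.093 and 0.202 in N40K cortex (log2 change -0.52), and a change of -1.20 in 5xFAD minus WT. Gbp2, an interferon-induced GTPase, had the smallest interaction p of the list. It scored 0.007, 0.006 and 0.007 in dTg, against 0.007, 0.005 and 0.009 in N40K cortex (log2 change -0.03), while 5xFAD libraries had 0.004, 0.003 and 0.003, against 0.007 in every WT library (-0.76). Its interaction of 0.73 had an unadjusted p of 0.00598.

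Promoters of these genes were read for 2 short motifs, since interferon-induced genes are bound by interferon regulatory and STAT factors and myeloid genes by PU.1. Promoter sequences, from 250 bases before to 50 after the start, are from RefSeq on GRCm38.p6, whereas the scores were made on mm9. The core of the interferon-stimulated response element is GAAA, any 2 bases and GAAA again. Searched on both strands, it was in 8 of the 15 interferon-list promoters found (53.3%). The share was 3.99% of all genes in the promoter table and 3.55% of genes of the score table with a promoter. The list holds known interferon-response genes, so its share says nothing about the scores. The core was also in 3 of 21 promoters of the amyloid-associated list (14.3%) and 1 of 14 of the homeostatic list (7.14%). It was in 12 of 203 promoters (5.91%) of the genes of mean score at least 0.02 that lay lower in dTg without overlap, in 4 of 212 (1.89%) of those that lay higher, and in 3.46% of all genes of that score. The PU.1 core GAGGAAGT was in 2 of 21 promoters of the amyloid-associated list (9.52%), against 3.69% of all genes in the promoter table, in 1 of 14 homeostatic and 0 of 15 interferon promoters. It was in 8 of 203 promoters of the lower genes (3.94%) and 5 of 212 of the higher ones (2.36%), against 3.57% of all genes of that score, and the motifs shared no bases in any promoter. Of the 24 immune-list and named genes that lay lower without overlap, 19 had a promoter entry, and the interferon core was in those of Ddx58 and Trim30a. Shown are the promoters of these genes, with the match in capitals on the printed strand, and that of Cd68. Cd68 has the smallest p of the 10 lower genes named above, and its promoter holds neither motif. They lie on the minus strand at chr4:40239776-40240075 (Ddx58), chr7:104465144-104465443 (Trim30a, 1 of its entries) and chr11:69666121-69666420 (Cd68).
Ddx58: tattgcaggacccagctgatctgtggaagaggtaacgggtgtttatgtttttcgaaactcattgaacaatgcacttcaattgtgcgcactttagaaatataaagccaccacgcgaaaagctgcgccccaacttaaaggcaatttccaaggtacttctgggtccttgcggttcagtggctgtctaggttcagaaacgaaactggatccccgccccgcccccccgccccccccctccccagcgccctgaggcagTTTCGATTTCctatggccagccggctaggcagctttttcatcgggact
Trim30a: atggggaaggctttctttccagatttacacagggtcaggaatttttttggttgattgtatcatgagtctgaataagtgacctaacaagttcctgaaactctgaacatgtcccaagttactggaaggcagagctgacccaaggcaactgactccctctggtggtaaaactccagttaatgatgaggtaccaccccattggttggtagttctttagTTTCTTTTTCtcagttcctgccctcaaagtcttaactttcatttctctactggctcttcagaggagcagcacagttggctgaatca
Cd68: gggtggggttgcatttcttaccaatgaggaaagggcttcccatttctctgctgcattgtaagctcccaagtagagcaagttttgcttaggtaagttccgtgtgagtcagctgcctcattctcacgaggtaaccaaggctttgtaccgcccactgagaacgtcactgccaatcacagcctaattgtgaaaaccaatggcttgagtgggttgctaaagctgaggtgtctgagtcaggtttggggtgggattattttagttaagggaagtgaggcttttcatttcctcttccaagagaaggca
A match describes the letters in this window and shows no binding.

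Outside the immune lists the medians were close to that of all genes. Of 25 astrocyte genes 17 had a change below 0 (68%, against 43.9% of all genes; 11 without N40K replicate 1), with a median of -0.06 (-0.04 centred, 0 without N40K replicate 1 or dTg replicate 1) and 2 lower at an unadjusted p under 0.05 (8%, against 2.27%). One of these was Gfap, the intermediate filament of reactive astrocytes, which scored 0.010, 0.011 and 0.013 in dTg, against 0.015, 0.016 and 0.015 in N40K cortex (log2 change -0.38 ± 0.12 (SE), adjusted p = 0.827). The groups were apart, and the change in 5xFAD minus WT was -0.33. The second was the glutamate transporter Slc1a2, at 0.003, 0.004 and 0.003 in dTg, against 0.004 in every N40K library. The medians of oligodendrocyte genes (12 in the table) and endothelial genes (11) were 0.0012 and 0.018, with none at an unadjusted p under 0.05.

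The medians of the spliceosome lists were likewise near that of all genes. Of 36 genes of the U1 snRNP and core spliceosome 21 had a change above 0 (58.3%, against 50.4% of all genes), with a median of 0.02 and 1 at an unadjusted p under 0.05. That was Snrpd1, which encodes an Sm core protein, at 0.006, 0.007 and 0.006 in dTg, against 0.005 in every N40K library. Snrnp70, the mouse gene for U1-70K, scored 0.042, 0.039 and 0.045 in dTg, against 0.042, 0.041 and 0.040 in N40K cortex, so the groups overlapped (log2 change 0.03). The SR proteins, CLK kinases and hnRNPs (34 in the table) had a median of 0.03, and none had an unadjusted p under 0.05. The mouse App gene was listed at 0 in all 12 libraries, and the groups overlapped for Thy1 (log2 change -0.15), values that do not check the human transgenes.

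The medians of the neuronal lists lay at 0 or slightly above. Of 50 voltage-gated ion channel genes 35 had a change above 0 (70%, against 50.4% of all genes) and 2 below, with a median of 0.07 (0.09 centred) in dTg minus N40K and 0.00061 in 5xFAD minus WT. At an unadjusted p under 0.05, 2 were higher (4%, against 2.87% of all genes). The sodium channel gene Scn8a scored 0.004, 0.005 and 0.004 in dTg, against 0.004, 0.003 and 0.003 in N40K cortex (log2 change 0.25 ± 0.099 (SE), adjusted p = 0.942), and the groups touched. Under quantile normalization 12 of the 50 channel genes had a change below 0, and leaving out 1 library at a time gave 0 to 16 (16 without N40K replicate 2). The list's median remained above 0 when 1 library was left out, at 0.03 to 0.14.

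The glutamatergic (37 genes) and GABAergic (32 genes) lists had medians of 0.04 each. Snap25, a fusion protein of synaptic vesicles, scored 0.005, 0.006 and 0.005 in dTg, against 0.005, 0.004 and 0.004 in N40K cortex (log2 change 0.21), and was at 0.003 in every 5xFAD and WT library. The 13 activity-regulated genes had a median of 0.07 in dTg minus N40K (-0.088 without N40K replicate 2, 0.16 without N40K replicate 1) and 0.19 in 5xFAD minus WT, and none reached an unadjusted p under 0.05 in dTg minus N40K. Mitochondrial respiratory chain genes (41) had a median of 0 and ribosomal protein genes (71) one of -0.01.

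**Figure D4:**
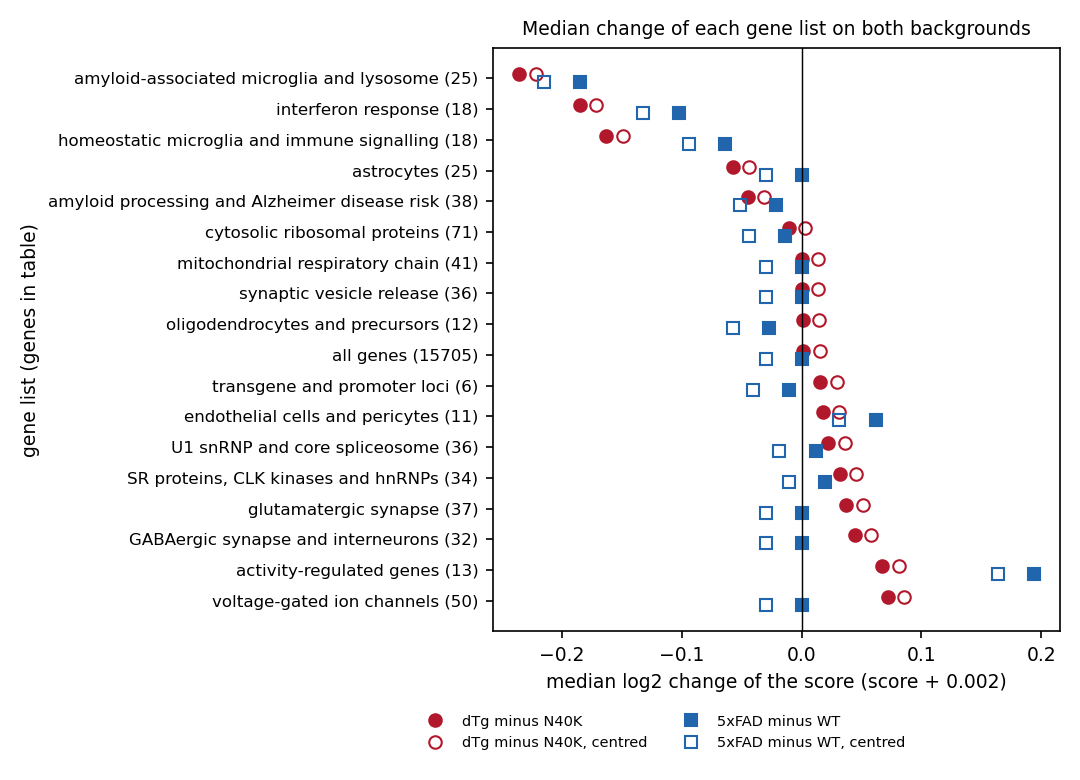
Median log2 change of each gene list in dTg minus N40K (circles) and 5xFAD minus WT (squares), open where each library was centred on its median, with the number of genes in the table. The amyloid-associated microglia list is lowest in both (-0.24 and -0.19), followed by the interferon and homeostatic microglia lists, while the spliceosome and ribosomal lists lie near the median of all genes and the activity-regulated list lies at 0.07 and 0.19.

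Set against the same transgenes without N40K, the lower genes tended to be lower again. The comparison of 5xFAD with WT uses other libraries, although all 12 share 1 estimate of the spread, and 3 genes (0.0191%) passed in it, 2 of them higher. Leaving out 1 library gave 3 or 4 genes without WT replicate 1, N40K replicates 2 or 3 or dTg replicates 1 or 2, and 5 to 12 genes without each of the others. Of the 337 genes that lay lower in dTg without overlap, 229 (68%) had a change below 0 in 5xFAD minus WT, against 49.6% of all 9640 genes of mean score at least 0.02. With centring it was 74.2%, against 60.4% of all. For 55 genes the groups were apart and lower in both comparisons, which is 16.3% of the 337 genes and 14% of the 392 genes lower in 5xFAD, where 4.07% of all genes were lower in 5xFAD without overlap. In the higher direction 31 genes were shared, 9.25% of the 335 genes and 8.52% of the 364 genes higher in 5xFAD, where the share of all genes was 3.78%.

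The shares were higher among genes of small p, with cut-offs chosen after the values were seen. Of the 100 lower genes of smallest p, 84 had a change below 0 in 5xFAD minus WT (against 49.6% of all 9640 genes). Of the same 100, 39 lay lower there without overlap (against 4.07%). Of the 100 higher genes of smallest p, 69 had a change above 0 (against 49.8%) and 14 lay higher without overlap (against 3.78%). The p-values use the spread of all 12 libraries, so genes that vary little within 5xFAD and WT are favoured. That makes a lack of overlap there likelier. Over all 9640 genes the 2 changes correlated weakly, with Pearson's r = 0.146 and Spearman's rho = 0.126 across genes, which are not independent replicates. In the amyloid-associated list 19 of the 25 genes had a change below 0 in both comparisons (76%, against 22% of all genes, of which 43.9% were below 0 in dTg minus N40K and 42.6% in 5xFAD minus WT), and 5 were apart and lower in both (20%, against 0.414% of all genes). The list's median was -0.24 in dTg minus N40K and -0.19 in 5xFAD minus WT, that of the interferon list -0.19 and -0.10, and that of the homeostatic list -0.16 and -0.06.

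**Figure D5:**
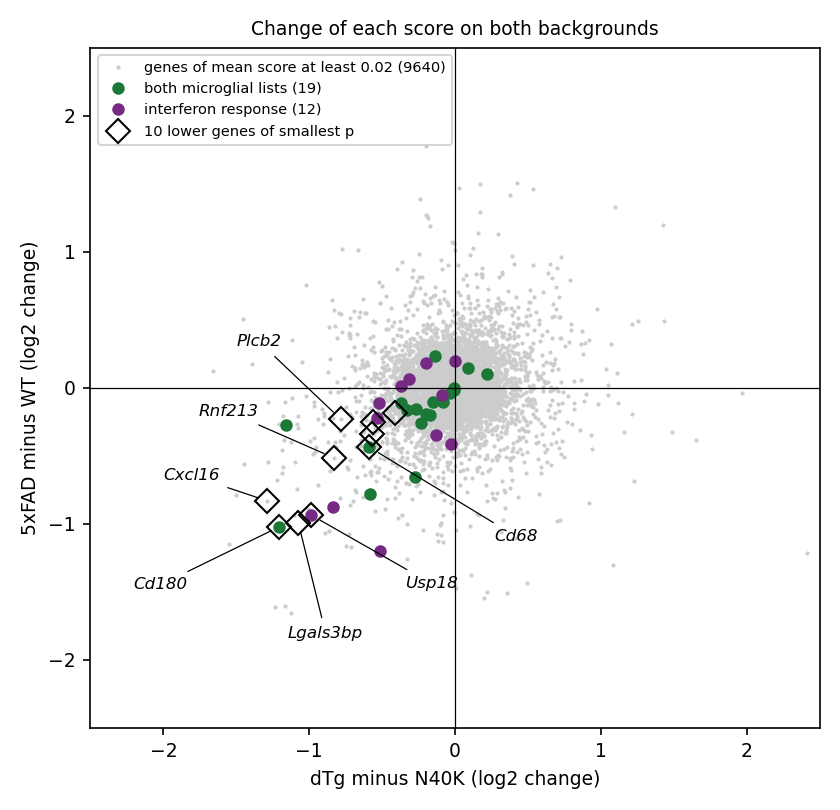
Log2 change of each score in dTg minus N40K (horizontal) and 5xFAD minus WT (vertical) for 9640 genes of mean score at least 0.02 over the 12 libraries, of which 3 lie outside the plotted range. The 10 lower genes of smallest p (diamonds, with Lgals3bp drawn although its mean over 12 libraries is under 0.02) all lie below 0 on both axes, and most of the microglial (green) and interferon (purple) genes lie left of 0.

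The difference between the 2 changes was tested for each gene as the interaction of both sets of transgenes. It passed for 3 genes (0.0191%), Synpr, Atp2b2 and Kcnab1, and 450 genes (2.87%) had an unadjusted p under 0.05. Leaving out 1 library gave 1 gene without N40K replicate 3 or WT replicate 1, 4 without dTg replicate 1, and 5 to 14 without each of the others, 14 being without N40K replicate 1. Atp2b2, a plasma membrane calcium pump, and Kcnab1, a subunit of potassium channels, were each at 0.002 in every dTg, N40K and 5xFAD library and at 0.001 in every WT library, again 1 step of the last decimal. With centring 0 genes (0%) passed and 588 (3.74%) had an unadjusted p under 0.05. None of the 10 lower genes passed the interaction test, whose log2 values ran from -0.55 for Plcb2 to -0.05 for Usp18.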

How the data were processed

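The deposited 6-month table gives an Sd score per gene and library, a ratio made by the authors and rounded to 3 decimals. Per the submitters' processing notes the build was mm9 and the tools were bedtools 2.16.1, BWA, CASAVA and STAR. How the score was computed, the annotation and the depth of each library are not given in the sources used here. No interval that needs counts was therefore computed. Scores were analysed as log2(score + 0.002) with limma 3.58.1 in R 4.3.3, with 1 mean for each of the 4 groups of 3 libraries and default eBayes settings (8 residual and 1.2 prior degrees of freedom, 2.55 when centred). P-values are two-sided and Benjamini-Hochberg adjusted over 15705 genes, with a threshold of 0.05. Fits were run without and with centring of each library on its median. The procedure was also run on simulated data with independent noise per gene and changes planted in genes of mean score at least 0.02. No change was planted in genes under 0.02, where the genes that passed lie, and no shifts of whole libraries were simulated. The labels do not say which animal or litter each library came from, so p-values measure only the spread between these libraries, which may be technical.

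Named genes were those that passed, then up to 10 per direction (5 when centred) of smallest p with a mean score of at least 0.02 in the 6 libraries and no overlap, the member of smallest p of each list, the transgene and promoter loci, and the genes that passed the interaction. Other list members are named as examples after their values were seen. Predicted and unannotated gene names were not named. Members, gene lists and comparisons were chosen with earlier results of these data known. Symbols were matched to RefSeq promoters (10545 of 15696 symbols). The 12-month table was not used here, and a few genes that the rule names are not reported here. Alternatives were another normalization, 4 other pseudocounts, a filter at 0.02, a trended prior, the 6 libraries alone, a replicate block, and leaving out libraries.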

Additional observations from a re-analysis of the deposited data

Results flagged for a closer look

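For 3 genes the change in dTg minus N40K differed from the change in 5xFAD minus WT by the interaction test in limma. Synpr had an interaction of 0.585 on the log2(score + 0.002) scale (adjusted p = 0.0018), with scores of 0.001 in every dTg library, against 0 in every N40K, 5xFAD and WT library, so the size is set by the pseudocount. Atp2b2 and Kcnab1 each had an interaction of -0.415 (adjusted p = 0.0119), with scores of 0.002 in every dTg, N40K and 5xFAD library, against 0.001 in every WT library. Each rests on 1 step of the last deposited decimal without spread within the groups, and none passed when libraries were centred (adjusted p = 0.817 for Synpr and 0.992 for the other 2 genes). Over 22 alternatives the adjusted p ran from 4.99e-10 to 1 for Synpr and from 1.26e-06 to 1 for Atp2b2 and Kcnab1.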

How the results depend on the processing

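All 3 genes that passed in dTg minus N40K lay at the last decimal, so their number moved with most choices. It was 0 with centring, at a pseudocount of 0.01, among genes of mean score at least 0.02 and with the 6 libraries alone, and 1 (higher, Synpr) with quantile normalization and at a pseudocount of 0.005. Without the 2 libraries of highest median it was 34 (27 higher, 7 lower), and 3 to 22 without 1 library (2 to 21 higher, 1 to 4 lower). For 5xFAD minus WT it was 0 with centring, at a pseudocount of 0.01 and with the filter, 27 (21 higher, 6 lower) with the 6 libraries alone, 10 (8 and 2) without both libraries, and 3 to 12 without 1 (2 to 11 higher, 1 to 5 lower), and 0 were lower with quantile normalization or a pseudocount of 0.005. For the interaction it was 0 with centring, with the filter and at pseudocounts of 0.005 and 0.01, 1 (0 lower) with quantile normalization, 5 with a trended prior (2 higher), 22 (15 and 7) without both libraries, and 1 to 14 without 1 (1 to 12 higher, 0 to 8 lower), and 2 were higher at pseudocounts of 0.0005 and 0.001.

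The deviations of dTg and N40K libraries with equal replicate numbers correlated at -0.2, -0.0591 and -0.00901 over genes. They include shifts of whole libraries, so they cannot show whether samples were paired by litter. With a replicate block 1 gene (higher) passed in dTg minus N40K, 0 were lower in 5xFAD minus WT, and 0 passed the interaction. With block and centring 0 passed in any of the 3, and 1 astrocyte gene was lower at an unadjusted p under 0.05.

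The medians of the microglial and interferon lists lay below 0 under all alternatives run. The filter left 13 amyloid-associated members below 0 (3 lower at an unadjusted p under 0.05), 4 homeostatic (1; median -0.22), 11 interferon (median -0.34) and 5 astrocyte members (0). The homeostatic median was -0.099 at a pseudocount of 0.01, -0.11 without both libraries and -0.21 to -0.083 without 1, with 3 to 5 members lower at that p. Without both libraries the interferon median was -0.35, with 3 members lower (3 to 5 without 1). Of the astrocyte genes 11 were then below 0 (11 to 20 without 1), and 1 was lower at that p (1 to 3 without 1; 1 with centring and with the 6 libraries alone). Of the channel genes 12 were below 0 with quantile normalization (0 to 16 without 1), and the activity-regulated median ran from -0.088 to 0.16 without 1.

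Signs turned for values near 0 when 1 library was left out. In dTg minus N40K these were Prnd (-0.012 to 0.21, lowest without N40K replicate 2) and Snrnp70 (-0.018 to 0.081, lowest without dTg replicate 3). In 5xFAD minus WT they were Cdk8 (-0.038 to 0.099), Sspn (-0.034 to 0.19), Suv39h2 (-0.047 to 0.12), Csf3r (-0.017 to 0.080), Trmt112 (-0.25 to 0.15) and Gas2l1 (-0.057 to 0.016, and 0.011 with quantile normalization). The cause was not tested. Of the other values of named genes, 1944 kept their direction and side of the threshold, 13 newly passed and 51 no longer passed. The score's 3 decimals limit what can be read from genes under 0.02, and its unknown depth limits the rest.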

Other observations

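The genes of mean score at least 0.02 that lay lower in dTg than in N40K without overlap had a median score of 0.116 over the 12 libraries, against 0.0705 for those that lay higher and 0.0716 for all genes of that score. By score range, 4.79% of the 3379 genes with a mean between 0.1 and 1 lay lower and 3.55% lay higher, while of the 4214 genes between 0.005 and 0.02 1.52% lay lower and 2.42% higher. The summed intron length in GENCODE M21 had a median of 10851 bases among the lower genes and 15209 bases among the higher ones, against 11611 bases for all genes of mean score at least 0.02. No test was run on these medians.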
